A study of Mus musculus with 18 samples.

Results

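The genes described here are the amino acid transporter genes of 7 solute carrier families: Slc1, Slc3, Slc6, Slc7, Slc36, Slc38 and Slc43. They were chosen by symbol alone, as every listed gene whose name is one of these family prefixes followed by the letter a and a number, which gave 60 of 26665 genes. Of these 60 genes, 21 reached 1 FPKM (fragments per kilobase of transcript, scaled to the mapped fragments) in at least 3 of 18 libraries and were tested, among 12265 genes tested in all. A gene could pass this filter through 1 group alone, so the tested members are not a neutral sample of the 60. The symbols mix roles, since the Slc6 family also holds carriers of monoamines and Slc43a3 is better known as a carrier of purine nucleobases.

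The 18 libraries were made from T cells sorted from the spleen of C57BL/6 mice, 3 for each of 6 groups. All mice carried the Foxp3EGFP reporter, in which a green fluorescent protein marks cells that express Foxp3, the transcription factor that defines regulatory T cells (Treg). One genotype was otherwise wild type and the other was CD28-/-, that is, without the CD28 costimulatory receptor of T cells. From each genotype came Nrp1+ Treg, which the labels call tTreg, Nrp1-negative Treg, which they call pTreg, and conventional T cells (Tconv). The age and sex of the mice, and whether replicates came from separate animals, are not given in the sources used here, so p-values measure only the spread between these libraries, which may be technical.

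Amino acid carriers set how much substrate a T cell has for protein synthesis and for signalling through mTORC1. Several Slc7 proteins are light chains that reach the cell surface only when bound to a heavy chain, either Slc3a2 (CD98) or Slc3a1 (rBAT). Slc1a5 (ASCT2) and the Slc38 carriers bring in glutamine and small neutral amino acids, Slc7a1 brings in arginine and lysine, and Slc36a1 and Slc38a9 act at the lysosome, where mTORC1 senses amino acids.

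The promoter-side sequences of 2 members are shown. Slc7a10 (Asc-1), a light chain that carries small neutral amino acids such as serine, glycine and alanine, is the member called for loss of CD28. Slc36a4, a carrier of proline and tryptophan, is shown beside it because it was also higher in the Nrp1+ than in the Nrp1-negative libraries without overlap, although it passed the test only with a block on the replicate number. Each is the 250 bases before the RefSeq transcript start on GRCm38.p6, on the plus strand, at chr7:35186135-35186384 for Slc7a10 and chr9:15709488-15709737 for Slc36a4. Capitals mark matches to a GC box (GGGCGG) or an ETS core (CCGGAA) on either strand.
Slc7a10: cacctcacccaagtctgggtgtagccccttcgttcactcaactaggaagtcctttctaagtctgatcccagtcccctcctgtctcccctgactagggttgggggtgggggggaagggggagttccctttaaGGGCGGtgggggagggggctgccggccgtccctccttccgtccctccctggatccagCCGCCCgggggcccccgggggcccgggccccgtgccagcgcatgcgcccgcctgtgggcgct
Slc36a4: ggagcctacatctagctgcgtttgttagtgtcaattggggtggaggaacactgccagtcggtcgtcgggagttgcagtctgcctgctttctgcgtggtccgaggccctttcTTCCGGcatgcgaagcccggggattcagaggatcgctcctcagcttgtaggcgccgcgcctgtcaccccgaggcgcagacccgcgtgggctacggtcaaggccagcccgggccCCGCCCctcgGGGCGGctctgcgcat
The Slc7a10 stretch has a G+C content of 69.6% and held GC boxes that begin 119 and 62 bases before the start. The Slc36a4 stretch has a G+C content of 66.0% and held 1 ETS core, 139 bases before the start, and GC boxes at 26 and 16 bases. Neither stretch held a forkhead (GTAAACA), AP-1 (TGANTCA), amino acid response (TGATGNAA), cyclic AMP response (TGACGTCA) or RUNX (TGTGGTT) match. Over all 32851 promoters of this length in the table, 32.7% held a GC box, 12% an ETS core, 3.17% the forkhead letters, 6.75% the AP-1 letters, 3.45% the amino acid response letters, 1.55% the cyclic AMP response letters and 4.40% the RUNX letters. RefSeq promoters were matched for 16 of the 21 tested members, 23 promoters in all, of which 14 held a GC box, 7 an ETS core, 4 AP-1, 2 the amino acid response letters, 1 the cyclic AMP response letters and 0 the forkhead or RUNX letters. Some promoters of the same gene overlap, as for Slc7a6 and Slc7a7, so the same site can be counted in more than 1 of the 23. No motif overlapped another in the 2 sequences printed. A match is a description of letters and not evidence of binding.

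Per library, 10703 to 11741 genes reached 1 FPKM and all values summed to 514726 to 994139. Low values did not fall on steps of whole reads, and without read counts neither depth nor counting error can be given. Among the tested genes the median level was lowest in replicate 1 of wild type Nrp1-negative Treg. The FPKM sum was highest in replicate 1 of wild type Tconv, and replicate 3 of CD28-/- Tconv held Treg transcripts (Foxp3 at 21.1 FPKM against 0.0670 and 0.205 in the other 2 libraries of its group). CD28-/- Nrp1+ Treg replicate 3 had a summed level of 6 Tconv markers of 461 FPKM, where the range over wild type Nrp1+ Treg was 268 to 297. The first 3 of these libraries together, called the 3 outlying libraries below, and the last 2 together were left out in alternative fits. Cd28 was listed at 57.5 to 62.9 FPKM in wild type and 71.2 to 80.6 FPKM in CD28-/- Nrp1+ Treg, and was not lower in the CD28-/- libraries of the other populations, so its level does not check the genotype labels. T cell markers were high everywhere, with 5 of 6 listed and a sum of 1126 to 2386 FPKM. All differences below are of log2(FPKM + 1), which understates the change of genes near or under 1 FPKM, and are given ± SE or with a 95% confidence interval from a limma fit to all 18 libraries. A gene is called at a Benjamini-Hochberg adjusted p under 0.05 over all genes tested. Whether the libraries of 2 groups overlap is given as a description. The share of all tested genes without overlap was not counted, so lack of overlap alone is not a result about a member.

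The transporter repertoire of these cells was narrow and rested on a few genes. The 3 genes with the highest mean over the 18 libraries held 54.4% to 66.9% of a library's summed FPKM of all 60 members (median 59.6%). The 12 genes with the highest mean held 90.2% to 95%. Slc1a5, the glutamine and small neutral amino acid exchanger, led with a mean of 123 FPKM over the 18 libraries (77.4 to 154). Slc38a2 (SNAT2), a sodium-coupled carrier of small neutral amino acids, followed at 56.3 FPKM (41.8 to 83.9), and the heavy chain Slc3a2 came next at 44.9 FPKM (36.4 to 71.2). The summed level of the 60 genes was 411 ± 49.7 FPKM (SD, n = 3) in wild type Nrp1+ Treg, 389 ± 12 in CD28-/- Nrp1+ Treg, 351 ± 89.9 and 390 ± 37.2 in wild type and CD28-/- Nrp1-negative Treg, 387 ± 29.7 in wild type Tconv and 342 ± 35.1 in CD28-/- Tconv. CD28-/- Tconv, at 302 to 368 FPKM, lay below wild type Nrp1+ Treg (373 to 467) and CD28-/- Nrp1+ Treg (375 to 399) without overlap. All other pairs of groups overlapped. The wide spread of wild type Nrp1-negative Treg came from its replicate 1, at 247 FPKM against 393 and 412.

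**Figure D1:**
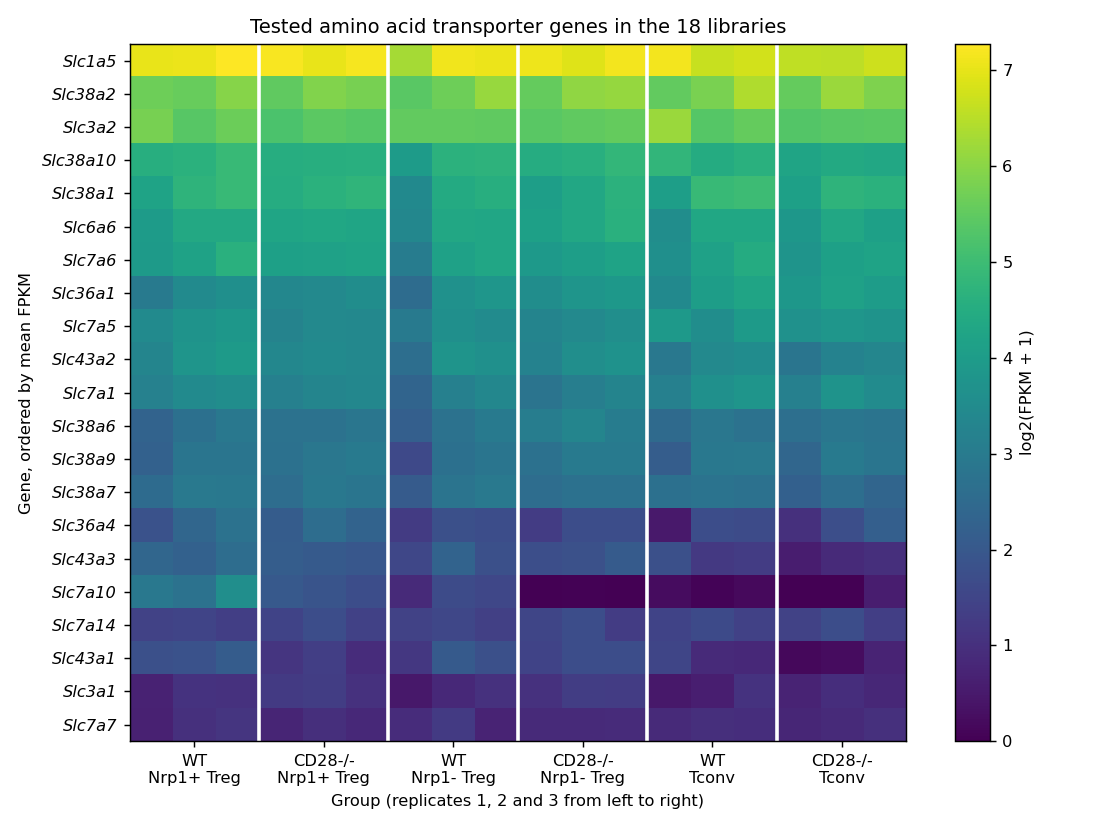
Levels of the 21 tested transporter genes, as log2(FPKM + 1), in the 18 libraries (columns, replicates 1 to 3 within each group) with genes ordered by mean FPKM. Slc1a5, Slc38a2 and Slc3a2 were the brightest rows in the groups shown, and Slc7a10 was brightest in the 3 libraries of wild type Nrp1+ Treg, at 5.68 to 11 FPKM, and near 0 in both Tconv groups and in CD28-/- Nrp1-negative Treg.

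Below these 3 genes, 8 members had means between 9.01 and 22.7 FPKM. They were Slc38a10 at 22.7 FPKM, Slc38a1 (SNAT1), another glutamine carrier, at 22.1 FPKM, and Slc6a6, the taurine carrier, at 17.6 FPKM. The group also held Slc7a6 (y+LAT2), a light chain that exchanges cationic for neutral amino acids, at 16.3 FPKM, and Slc36a1, a proton-coupled carrier of small amino acids at the lysosome, at 11.9 FPKM. Slc7a5 (LAT1), the light chain that brings in leucine and other large neutral amino acids, had a mean of 11 FPKM, Slc43a2 (LAT4), also a carrier of large neutral amino acids, 9.82 FPKM, and Slc7a1 (CAT-1) 9.01 FPKM. Slc38a6, Slc38a9 and Slc38a7 lay at 5.97, 5.63 and 5.42 FPKM.

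The lowest tested members were Slc36a4 at 2.72 FPKM, Slc43a3 at 2.59, Slc7a10 at 2.06, Slc7a14 at 1.81, Slc43a1 (LAT3, a carrier of large neutral amino acids) at 1.64, Slc3a1 at 0.95 and the light chain Slc7a7 (y+LAT1) at 0.88 FPKM. Slc3a1 reached 1 FPKM in 10 libraries and Slc7a7 in 3, which puts it just inside the filter. Just outside were Slc6a18 (mean 0.58 FPKM, 1 library at 1 FPKM or more), Slc7a3 (0.52 FPKM, 1 library) and the creatine carrier Slc6a8 (0.51 FPKM, 0 libraries). With a minimum of 0.5 FPKM 24 members would be tested, and with a minimum of 2 FPKM 19.

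By family, all 3 Slc43 and both Slc3 genes were tested, 6 of 11 Slc38, 2 of 4 Slc36, 6 of 15 Slc7, 1 of 7 Slc1 (Slc1a5) and 1 of 18 Slc6 genes (Slc6a6). Slc6a14 and Slc7a12 were listed at 0 in every library. Slc7a11 (xCT), the cystine and glutamate exchanger, had a mean of 0.06 FPKM and a maximum of 0.21 FPKM, and was not tested. The other Slc1 genes, most of them glutamate carriers, did not pass the filter, and the highest of their means was 0.24 FPKM, for Slc1a4, a carrier of serine and other neutral amino acids.

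Most members varied little between libraries. The coefficient of variation over the 18 libraries had a median of 21.8% for the 21 tested members and 23.6% for all tested genes. It was lowest for Slc38a10 (14.7%), Slc7a14 (14.9%), Slc3a2 (17.1%) and Slc1a5 (17.5%), and highest for Slc7a10 (145%), Slc43a1 (59.3%), Slc36a4 (50.8%) and Slc43a3 (49.0%). These last 4 genes carry most of the differences described next. Slc7a10 lies at chr7:35186385-35201114 on the plus strand (GENCODE mouse release 21, GRCm38), Slc43a1 at chr2:84838850-84863594 and Slc43a3 at chr2:84936579-84958509, both on the plus strand and 72985 bases apart, and Slc36a4 at chr9:15709738-15743361 on the plus strand. All 4 are protein-coding. Slc7a10 shares 377 of its 2111 exonic bases with Lrp3 on the other strand, and how strand was treated in counting is not given in the sources used here, so reads of the 2 genes in that stretch may not be told apart. Lrp3 itself was listed at 0.253, 0.400 and 0.456 FPKM in wild type Nrp1+ Treg and at no more than 0.180 FPKM elsewhere.

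**Figure D2:**
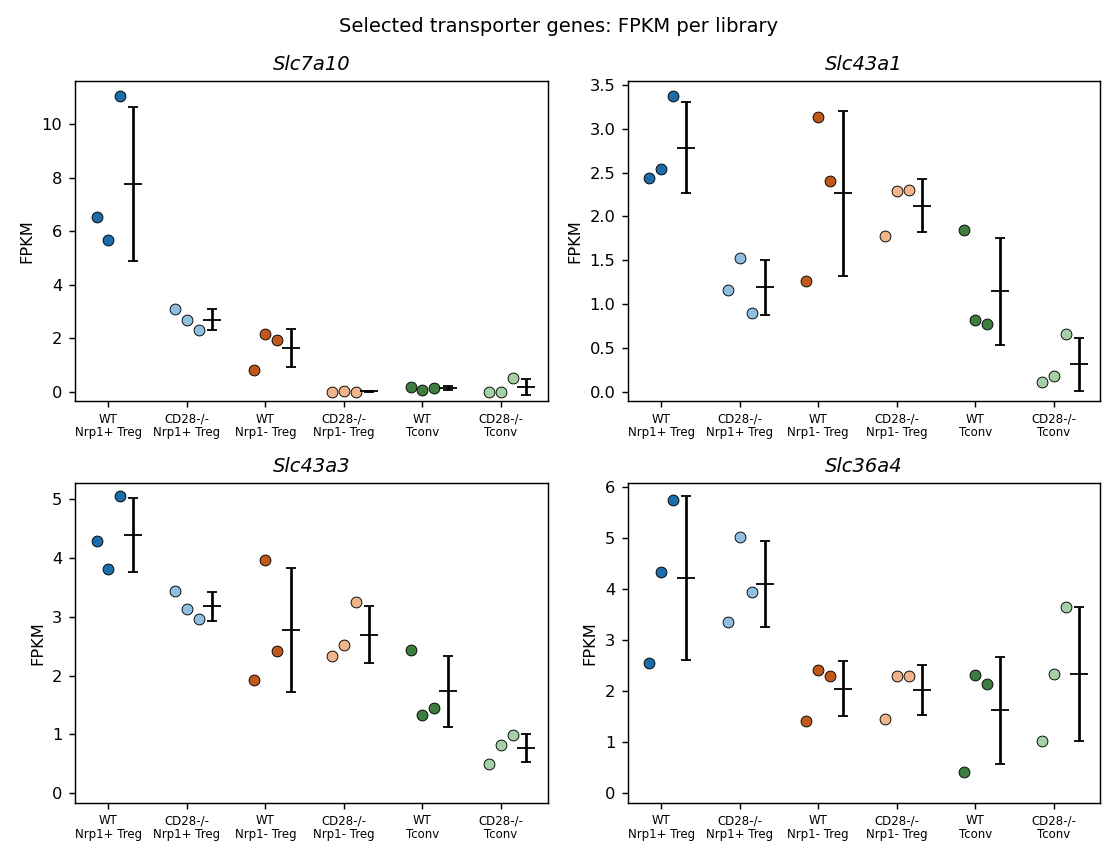
FPKM of Slc7a10, Slc43a1, Slc43a3 and Slc36a4 in each library (points, replicates 1 to 3 from left to right) with the mean and SD of each group of 3 (bars at the right of the points). The wild type Nrp1+ Treg libraries lay above every other library for Slc7a10, and the CD28-/- Tconv libraries lay lowest for Slc43a1 and Slc43a3.

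The first question was what the loss of CD28 did to the transporter genes in each population. In both Treg subsets 1 member fell and it was Slc7a10, while 20 others did not pass the test. In Nrp1+ Treg, Slc7a10 stood at 6.54, 5.68 and 11 FPKM in wild type and at 3.08, 2.69 and 2.30 FPKM in CD28-/- libraries. The groups did not overlap, and the wild type mean was 2.88 times the CD28-/- mean. The difference was -1.20 ± 0.23 (95% interval -1.69 to -0.71, adjusted p = 0.0427). In this comparison 0.204% of all tested genes were called, 0.171% as lower and 0.0326% as higher. The call is near the threshold: leaving out single libraries gave adjusted p-values up to 0.294, without wild type replicate 3, where the difference was -0.95. The call was also lost without wild type replicate 1 and without each of the 3 CD28-/- libraries, and at a pseudocount of 0.1 (adjusted p = 1).

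Markers of other cells, and some markers of the sorted cells themselves, moved in the same comparison. The summed FPKM of 7 B cell markers was 11 to 12.8 in wild type and 5.95 to 6.33 in CD28-/- Nrp1+ Treg, most of it Cd79b. Only 2 of the 7 reached 1 FPKM in at least 3 libraries, and Ms4a1, a defining B cell gene that encodes CD20, was at no more than 0.224 FPKM in any of the 18 libraries. The 6 markers of Nrp1+ Treg, the sorted cells, summed to 718 to 875 FPKM in wild type and 566 to 681 FPKM in CD28-/- libraries. Of these, Tnfrsf18 (190 to 217 against 128 to 147 FPKM) and Ctla4 (145 to 195 against 116 to 139 FPKM) did not overlap. Foxp3, Nrp1, Ikzf2 and Il2ra overlapped between the genotypes. The 4 listed plasma cell markers summed to 33.5 to 37.1 FPKM in wild type and 25.6 to 30.7 FPKM in CD28-/- libraries. None of the lists had a marker at 0 in all libraries. The part of these shifts in the Slc7a10 result was not tested, and in bulk libraries fewer cells that express a gene and less RNA per cell cannot be told apart.

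Slc7a10 also fell in Nrp1-negative Treg, where it was low to begin with. The wild type libraries stood at 0.816, 2.14 and 1.91 FPKM, and the CD28-/- libraries were listed at 0, 0.0253 and 0 FPKM. Here too the groups did not overlap. The difference was -1.34 ± 0.23 (95% interval -1.83 to -0.85, adjusted p = 0.0198), in a comparison in which 0.204% of all tested genes were called and 0.179% were lower. Without the low wild type replicate 1 the difference was -1.59. The call was lost when wild type replicate 2 or 3, or any of the 3 CD28-/- libraries, was left out, with an adjusted p of up to 0.141. The B cell marker sums of these groups overlapped, at 4.95 to 7.99 FPKM in wild type and 4.68 to 6.68 FPKM in CD28-/- libraries.

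In Tconv, Slc7a10 was near 0 in both genotypes, at 0.188, 0.0521 and 0.128 FPKM in wild type and 1.83e-05, 0 and 0.501 FPKM in CD28-/- libraries. The highest of these, CD28-/- replicate 3, is the library with Treg transcripts. The difference was 0.03 (95% interval -0.46 to 0.52). No member was called in Tconv by limma, where 0.791% of all tested genes were called. An unadjusted p under 0.05 was found for 2 of 21 members and for 1185 of all 12265 tested genes. The 2 were Slc43a1 and Slc43a3. Slc43a1 stood at 1.85, 0.819 and 0.772 FPKM in wild type and 0.106, 0.174 and 0.658 FPKM in CD28-/- Tconv, a difference of -0.70 ± 0.23 (adjusted p = 0.330). Slc43a3 stood at 2.43, 1.33 and 1.45 against 0.506, 0.816 and 0.990 FPKM, a difference of -0.62 ± 0.20 (adjusted p = 0.311). Neither pair of groups overlapped, and neither difference passed the test.

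The change of Slc7a10 was also compared between populations. The CD28 effect in Nrp1+ Treg minus that in Tconv was -1.23 (95% interval -1.93 to -0.54, adjusted p = 0.443), and that in Nrp1-negative Treg minus Tconv was -1.37 (-2.06 to -0.68, adjusted p = 0.233). Between the Treg subsets the effects differed by -0.14 (adjusted p = 0.869). Over 18 alternatives this value ran from -2.45 to 0.03, and it was called in 0 of these alternatives. The CD28-/- Nrp1-negative libraries were near 0, so the size of their fall depends on the pseudocount. None of the 21 members was called in these 3 tests by limma, while 0.122%, 0.0734% (0.0571% as higher and 0.0163% as lower) and 0.0245% of all tested genes were called, in the order given. In the same order 1, 2 and 1 members had an unadjusted p under 0.05, beside 267, 1073 and 180 of all 12265 tested genes. A fall of Slc7a10 in Treg that differs from Tconv is therefore not shown over all genes.

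The main carriers of the repertoire did not pass the test for loss of CD28 in any population. Slc1a5 stood at 138 ± 13.2 FPKM in wild type and 140 ± 8.35 FPKM in CD28-/- Nrp1+ Treg (SD, n = 3), a difference of 0.02 with a 95% interval of -0.39 to 0.43. Its difference was 0.23 (-0.18 to 0.64) in Nrp1-negative Treg and -0.24 (-0.65 to 0.17) in Tconv.

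Slc7a5, the leucine carrier, was at 10.2, 12.3 and 13.4 FPKM in wild type Nrp1+ Treg and at 8.53, 9.76 and 9.56 FPKM in CD28-/- Nrp1+ Treg. These groups did not overlap, yet the difference of -0.33 (95% interval -0.71 to 0.06) did not pass. In Nrp1-negative Treg it was 0.06 (-0.32 to 0.44) and in Tconv -0.07 (-0.46 to 0.31). Its heavy chain Slc3a2 differed by -0.25 (-0.63 to 0.12), -0.03 (-0.41 to 0.35) and -0.30 (-0.68 to 0.08), in the same order of populations as for Slc7a5. Slc38a2 differed by -0.01 (-0.54 to 0.52), 0.16 (-0.37 to 0.70) and -0.04 (-0.58 to 0.49), and Slc7a1, the arginine carrier, by -0.13 (-0.66 to 0.40), 0.11 (-0.42 to 0.64) and -0.07 (-0.60 to 0.46).

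Slc43a1 was lower in CD28-/- Nrp1+ Treg without overlap, at 1.16, 1.52 and 0.896 FPKM against 2.44, 2.54 and 3.38 FPKM in wild type, but its difference of -0.79 ± 0.23 did not pass (adjusted p = 0.459). With the 3 outlying libraries left out, all of other groups, which changes only the shared estimate of the spread, the adjusted p was 0.0234. Over the 21 members the median difference was -0.02 for the Nrp1+ subset, 0.16 for the Nrp1-negative subset and -0.05 for Tconv, beside -0.05, 0.19 and -0.16 over all tested genes. After quantile normalization the median of all genes was 0.00, 0.02 and 0.00 in these comparisons, and Slc7a10 still fell by 1.21 in the Nrp1+ and by 1.38 in the Nrp1-negative subset.

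**Figure D3:**
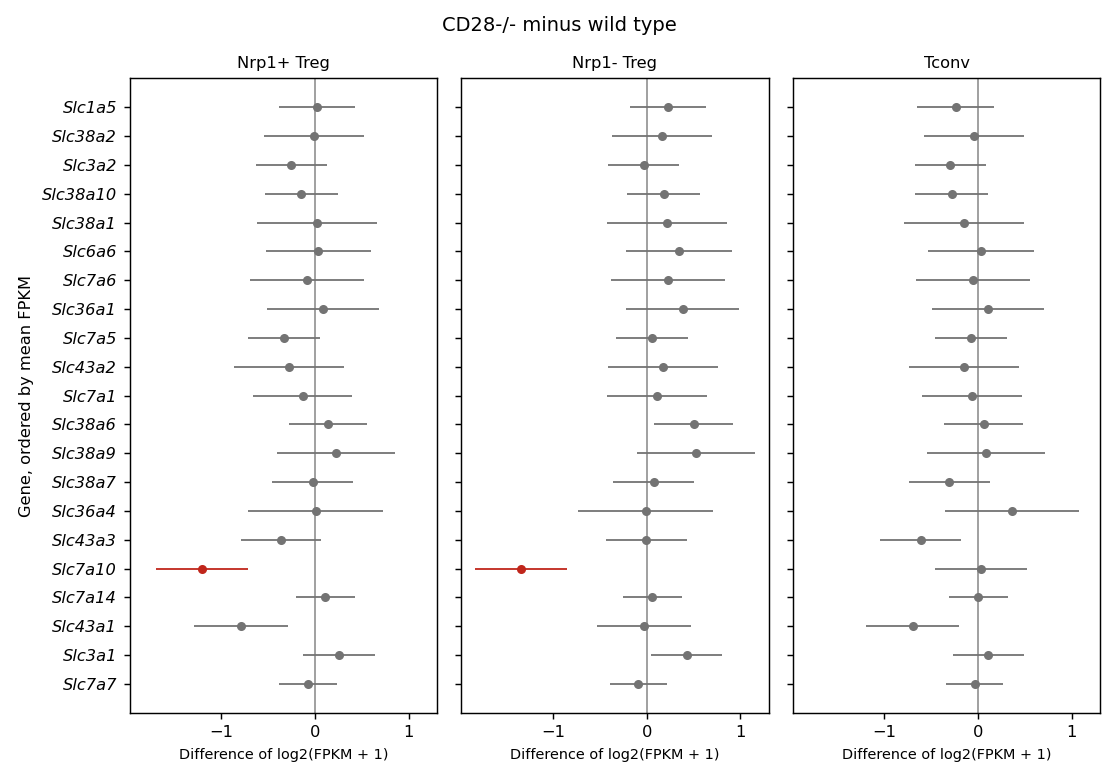
Difference of log2(FPKM + 1) between CD28-/- and wild type for the 21 tested transporter genes in Nrp1+ Treg, Nrp1-negative Treg and Tconv, with 95% confidence intervals. Red marks the genes called at an adjusted p under 0.05, which was Slc7a10 in both Treg subsets (-1.20 and -1.34) and no gene in Tconv.

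The second question was how the Treg subsets differ. Slc7a10 was higher in Nrp1+ than in Nrp1-negative Treg in both genotypes. In wild type the mean was 7.76 ± 2.88 against 1.62 ± 0.709 FPKM (SD, n = 3), a ratio of 4.78 with no overlap, and the difference was 1.73 ± 0.23 (adjusted p = 0.000281). Without CD28 the 2.30 to 3.08 FPKM of Nrp1+ Treg faced libraries listed at 0 to 0.0253 FPKM, and the difference was 1.87 ± 0.23 (adjusted p = 0.000122). Slc7a10 was the 1 member called in each comparison, where 4.93% of all tested genes were called in wild type (4.44% as higher) and 4.08% in CD28-/- cells (3.13% as higher). The B cell marker sum also differed in wild type, at 11 to 12.8 FPKM in Nrp1+ and 4.95 to 7.99 FPKM in Nrp1-negative libraries, and overlapped in CD28-/- cells (5.95 to 6.33 against 4.68 to 6.68 FPKM), and its part in the result was not tested. Slc7a10 was called under every alternative run for these comparisons, with an adjusted p of up to 0.0451 in wild type and up to 0.00119 in CD28-/- cells. The CD28-/- Nrp1-negative and the wild type Tconv libraries were both near 0, and their order cannot be read from these values.

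Slc36a4 had about the same pattern in both genotypes. It stood at 2.55, 4.33 and 5.75 FPKM in wild type Nrp1+ Treg and 1.42, 2.42 and 2.29 FPKM in wild type Nrp1-negative Treg. The CD28-/- libraries stood at 3.36, 5.01 and 3.94 FPKM against 1.45, 2.29 and 2.30 FPKM. The groups did not overlap in either genotype, and the ratio of means was 2.06 in wild type and 2.04 in CD28-/- cells. Neither difference passed without a block on the replicate number, at 0.74 ± 0.34 (adjusted p = 0.330) and 0.76 ± 0.34 (adjusted p = 0.339). Replicate 1 was the lowest of its group in each of these 4 groups, and with the block the adjusted p was 0.0197 in wild type and 0.0225 in CD28-/- cells.

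No other tested member was called between the Treg subsets, but some passed in alternative fits or did not overlap. The share of all tested genes without overlap was not counted for these comparisons either. Slc43a3 stood at 4.30, 3.81 and 5.05 FPKM in wild type Nrp1+ and 1.93, 3.96 and 2.43 FPKM in wild type Nrp1-negative Treg, with a difference of 0.54 ± 0.20 (adjusted p = 0.182). Those groups overlapped through replicate 2 of the Nrp1-negative cells, without which the difference was 0.76 (adjusted p = 0.0343). In CD28-/- cells Slc43a1 ran the other way, at 0.896 to 1.52 FPKM in Nrp1+ and 1.77 to 2.30 FPKM in Nrp1-negative Treg, with a difference of -0.52 ± 0.23 (adjusted p = 0.350), which passed after quantile normalization (adjusted p = 0.0459) and without the 3 outlying libraries (adjusted p = 0.0279). Slc38a6 was also lower in CD28-/- Nrp1+ Treg without overlap, at 5.72, 5.66 and 6.23 against 7.44, 8.84 and 7.29 FPKM. Its difference of -0.36 (95% interval -0.78 to 0.06, adjusted p = 0.475) passed after quantile normalization (-0.42, adjusted p = 0.0216). Slc36a1 did not overlap there either, at 9.29 to 10.9 against 10.9 to 13.7 FPKM, and its difference of -0.29 (adjusted p = 0.814) passed under no alternative run. The members' median difference was 0.25 in wild type and -0.02 in CD28-/- cells, beside 0.19 and -0.03 over all tested genes.

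The third question was how Treg differ from Tconv of the same genotype. In Nrp1+ Treg 3 members were higher than in Tconv in both genotypes, Slc7a10, Slc43a1 and Slc43a3, and 0 were lower. Over all tested genes 12.6% were called in wild type (8.33% as higher and 4.26% as lower) and 12.1% in the CD28-/- genotype (9.63% as higher and 2.47% as lower). The 3 calls of 21 members are close to that background.

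Slc7a10 in wild type Nrp1+ Treg was 63.2 times the Tconv mean of 0.123 ± 0.0682 FPKM, with a difference of 2.92 ± 0.23 (adjusted p = 8.85e-07). A ratio against values this low rests on little signal. The B cell marker sum was 1.72 to 2.18 FPKM in wild type and 1.15 to 3.61 FPKM in CD28-/- Tconv, below both Nrp1+ Treg groups, and its part in these differences was not tested. The CD28-/- difference was 1.68 ± 0.23 (adjusted p = 7.52e-05), and 1.88 without the 3 outlying libraries.

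Slc43a3 in wild type was 4.30, 3.81 and 5.05 FPKM in Nrp1+ Treg against 2.43, 1.33 and 1.45 FPKM in Tconv, with no overlap and a ratio of 2.53. Its difference was 0.99 ± 0.20 (adjusted p = 0.00242) in wild type and 1.25 ± 0.20 (adjusted p = 0.000315) in CD28-/- cells, where 3.45, 3.13 and 2.96 FPKM faced 0.506, 0.816 and 0.990 FPKM. The gene was called under every alternative run for both comparisons. The CD28-/- ratio was 4.13, and the difference was 1.34 without the 3 outlying libraries.

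Slc43a1 was 2.43 times its wild type Tconv mean (difference 0.85 ± 0.23, adjusted p = 0.0230) and 3.81 times its CD28-/- Tconv mean (0.75 ± 0.23, adjusted p = 0.0462), with no overlap in either genotype. Its calls were less firm. In wild type the call was lost without Nrp1+ Treg replicate 3 and without Tconv replicate 2 or 3, with an adjusted p of up to 0.111. The CD28-/- call was lost without any of the Nrp1+ Treg libraries and without Tconv replicate 1 or 2, with an adjusted p of up to 0.208, and after quantile normalization (0.41, adjusted p = 0.145).

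Slc36a4 was higher in wild type Nrp1+ Treg than in Tconv (0.421, 2.31 and 2.14 FPKM) with no overlap and a ratio of 2.59. The difference of 1.04 ± 0.34 had an adjusted p of 0.0568, and 0.000793 with the replicate block. The CD28-/- Tconv libraries stood at 1.02, 2.33 and 3.64 FPKM and overlapped Nrp1+ Treg of that genotype. The difference there was 0.68 ± 0.34 (adjusted p = 0.293, and 0.0185 with the block).

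Nrp1-negative Treg were set against Tconv in the same way. In wild type 1 member was called, Slc7a10, at 1.62 ± 0.709 against 0.123 ± 0.0682 FPKM (difference 1.19 ± 0.23, adjusted p = 0.00514), where 4.49% of all tested genes were called and 2.05% were higher. In CD28-/- cells Slc7a10 did not differ in the test (-0.18, 95% interval -0.67 to 0.31), and 2 members were called, Slc43a1 and Slc43a3, where 5.85% of all tested genes were called, 4.8% as higher and 1.05% as lower. Slc43a1 stood at 1.77, 2.30 and 2.30 against 0.106, 0.174 and 0.658 FPKM, a ratio of 6.79 and a difference of 1.27 ± 0.23 (adjusted p = 0.00306). Slc43a3 stood at 2.33, 2.52 and 3.25 against 0.506, 0.816 and 0.990 FPKM, a ratio of 3.50 and a difference of 1.06 ± 0.20 (adjusted p = 0.00368). Both were called under every alternative run in CD28-/- cells. In wild type the same genes overlapped between Nrp1-negative Treg and Tconv, with differences of 0.60 (adjusted p = 0.205) and 0.45 (adjusted p = 0.281). Those were 1.06 (adjusted p = 0.00189) and 0.79 (adjusted p = 0.0217) without the 3 outlying libraries, 2 of which belong to these groups. The comparisons within a genotype share their Tconv libraries, so calls of a gene in both subsets are not independent.

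The abundant carriers showed no called difference between Treg and Tconv. Slc36a1 was 9.48 ± 2.18 FPKM in wild type Nrp1+ Treg against 14.5 ± 4.18 in Tconv, and 9.96 ± 0.802 against 15.3 ± 1.81 in CD28-/- cells, where the groups did not overlap. The differences were -0.55 (95% interval -1.15 to 0.05, adjusted p = 0.294) and -0.56 (-1.17 to 0.04, adjusted p = 0.303). After quantile normalization both passed, at -0.60 (adjusted p = 0.00644) and -0.71 (adjusted p = 0.0021), as they did without the 3 outlying libraries, at -0.78 (adjusted p = 0.00683) and -0.56 (adjusted p = 0.0403). Slc1a5 ran the other way. It stood in CD28-/- cells at 140 ± 8.35 FPKM in Nrp1+ Treg and 97.5 ± 5.93 in Tconv with no overlap. Its difference of 0.52 (0.11 to 0.93, adjusted p = 0.109) passed after quantile normalization (0.47, adjusted p = 0.00423) and without the 3 outlying libraries (0.57, adjusted p = 0.000926). In wild type its difference of 0.26 (adjusted p = 0.532) also passed after quantile normalization (0.40, adjusted p = 0.0109) and without the 3 outlying libraries (0.40, adjusted p = 0.0106). For CD28-/- Nrp1-negative Treg against Tconv it was 0.43 (adjusted p = 0.277), and 0.48 without those libraries (adjusted p = 0.00513). For wild type Nrp1-negative Treg against Tconv, Slc7a1 had a difference of -0.59 (adjusted p = 0.253) and Slc7a5 of -0.44 (adjusted p = 0.229). Neither passed, though Slc7a1 did under 2 of 11 alternatives (adjusted p down to 0.0236). Slc7a5 passed in 0 of these alternatives. In CD28-/- cells Slc7a5 was lower than in Tconv without overlap, with a ratio of means of 0.750 in Nrp1+ and 0.797 in Nrp1-negative Treg. These differences passed only under 1 of 12 alternatives (adjusted p = 0.00321) and 1 of 11 (adjusted p = 0.0216). Quantile normalization moved the median difference of all tested genes between Nrp1+ Treg and Tconv from -0.02 to -0.05 in wild type and from 0.09 to -0.06 in the CD28-/- genotype.

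**Figure D4:**
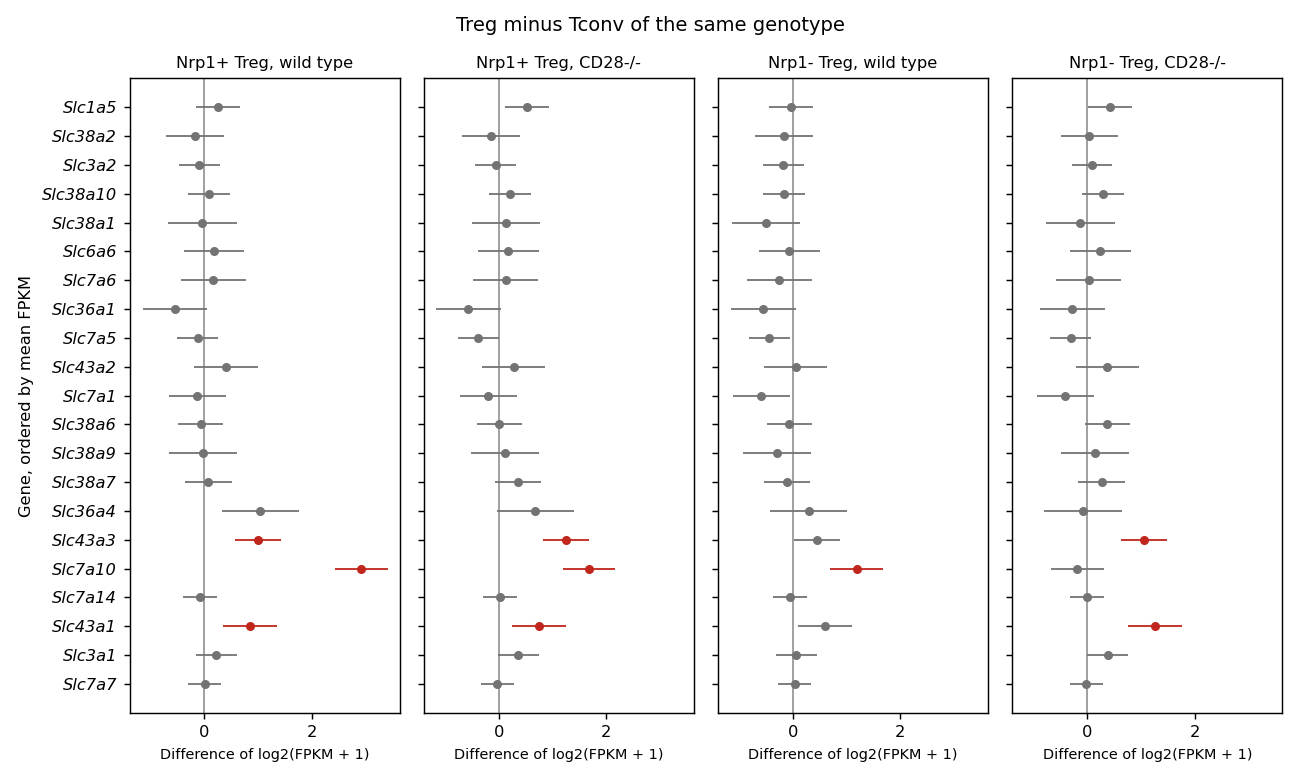
Difference of log2(FPKM + 1) between each Treg subset and Tconv of the same genotype for the 21 tested transporter genes, with 95% confidence intervals. Red marks called genes, which were Slc7a10, Slc43a1 and Slc43a3 for Nrp1+ Treg of both genotypes, Slc7a10 for wild type Nrp1-negative Treg, and Slc43a1 and Slc43a3 for CD28-/- Nrp1-negative Treg.

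The light chains that pair with Slc3a2 were also read as shares of their own sum, which sets aside differences in overall level between libraries. The 6 light chains were Slc7a5, Slc7a6, Slc7a7, Slc7a8, Slc7a10 and Slc7a11, and FPKM is already per length. Slc7a6 held the most in each group on average, from 46.9% in wild type Nrp1+ Treg to 59.3% in CD28-/- Nrp1-negative Treg, and Slc7a5 held 31.0% to 43.4%. Slc7a10 took 19.5% ± 3.46 (SD, n = 3) of the sum in wild type and 9% ± 1.5 in CD28-/- Nrp1+ Treg, 5.95% ± 0.855 in Nrp1-negative Treg of the wild type and at most 0.532% on average in the other 3 groups. The library values were 20.4%, 15.7% and 22.5% in wild type and 10.6%, 8.83% and 7.59% in CD28-/- Nrp1+ Treg, without overlap. These shares rest on the same Slc7a10 values as the tests above and are a description. The summed level of the 6 was 39.1 ± 8.92 FPKM in wild type Nrp1+ Treg and between 26.5 and 30.9 FPKM on average in the other 5 groups.

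**Figure D5:**
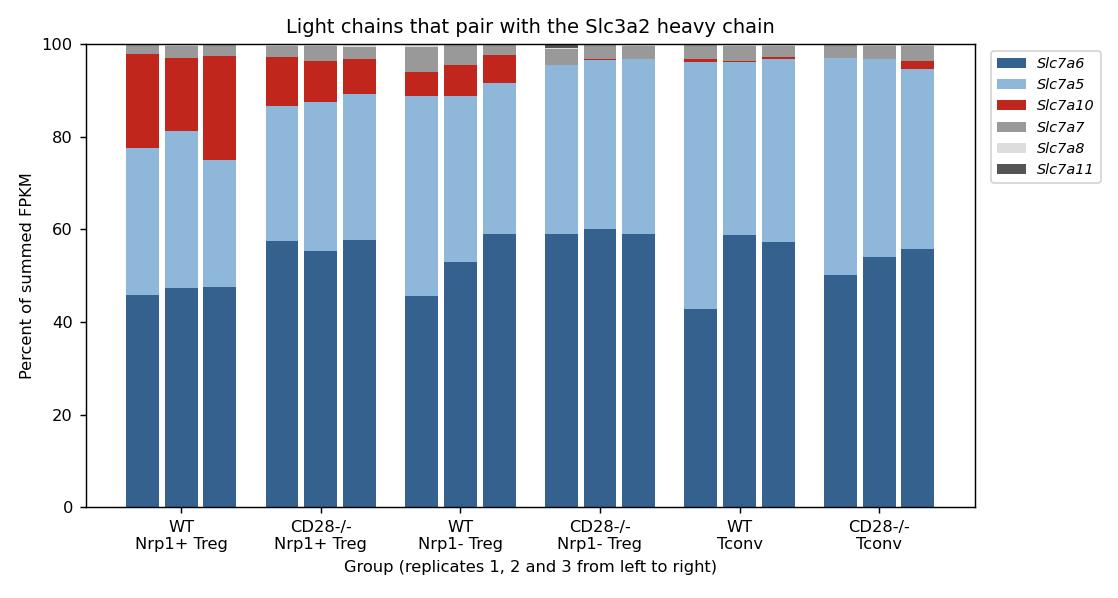
Share of each of 6 light chains in their summed FPKM (stacked bars, percent, 1 bar per library, replicates 1 to 3 from left to right in each group). The red Slc7a10 segment took 15.7% to 22.5% in wild type Nrp1+ Treg and 7.59% to 10.6% in CD28-/- Nrp1+ Treg, and was barely visible in Tconv.

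Genes around amino acid transport were counted from 5 lists. Loss of CD28 changed 1 of their 100 tested entries in Nrp1+ Treg by limma and 0 in the Nrp1-negative subset and in Tconv. Of all tested genes 0.204%, 0.204% and 0.791% were called. An unadjusted p under 0.05 was found for 6, 4 and 7 entries, beside 469, 544 and 1185 of all 12265 tested genes. The 1 entry called was Slc15a3, a lysosomal carrier of peptides and histidine in the list of other amino acid transporters (13 of 15 tested). It fell by 0.74 ± 0.12 (1.97 ± 0.343 to 0.764 ± 0.0614 FPKM, adjusted p = 0.0123). No gene was called among the 32 tested for amino acid sensing and mTORC1, the 18 of the integrated stress response and its factor ATF4, the 20 aminoacyl-tRNA synthetases and the 17 of amino acid metabolism. In Nrp1+ Treg 3 of the 18 stress genes had an unadjusted p under 0.05, beside 469 of all 12265 tested genes. The medians of the lists ran from -0.15 to -0.04 in the Nrp1+ subset, from 0.09 to 0.23 in the Nrp1-negative subset and from -0.28 to -0.17 in Tconv, beside the medians over all tested genes given above.

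Between the wild type Treg subsets 6 of the 100 entries were called higher in Nrp1+ Treg and 1 lower, where 4.44% and 0.489% of all tested genes were. In CD28-/- cells 3 were higher and 1 lower, where the shares of all tested genes were 3.13% and 0.946%. These counts are close to the background. In wild type 2 other transporters were higher in Nrp1+ Treg, Slc15a3 and Slc25a13 (citrin, the mitochondrial aspartate and glutamate carrier). Of the sensing genes 2 were higher, Rragd, a Rag GTPase that recruits mTORC1 to the lysosome (4.93 ± 1.57 against 1.65 ± 0.689 FPKM, difference 1.16), and the leucine sensor Sesn2 (0.89). In the stress list Psat1, an enzyme of serine synthesis, was higher (0.76) and Trib3, a target of ATF4, was lower (-0.77), and in the metabolism list Bcat1, which starts the breakdown of branched-chain amino acids, was higher (0.72). The 4 genes called in CD28-/- cells were among these, with Rragd (1.24), Bcat1 (0.76) and Slc15a3 (0.54) higher and Trib3 lower (-0.81).

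Against Tconv, 8 of the 100 entries were called higher in wild type Nrp1+ Treg and 4 lower, close to the 8.33% and 4.26% of all tested genes, and in CD28-/- cells 8 were higher and 3 lower, beside 9.63% and 2.47%. The wild type cells were higher in Rragd (1.97), Slc15a3 (1.32), Odc1, the first enzyme of polyamine synthesis (1.20), Bcat1 (0.90), Slc25a13 (0.79), Sesn2 (0.76), Psat1 (0.65) and Gatsl3 (0.59). They were lower in Trib3 (-1.20), the synthetase gene Cars (-0.72), Slc16a10 (TAT1, a carrier of aromatic amino acids, -0.69) and Bcat2, the mitochondrial partner of Bcat1 (-0.64). In wild type Nrp1-negative Treg 0 of the 100 entries were called higher than in Tconv and 2 lower, beside 2.05% and 2.44% of all tested genes. In CD28-/- cells 2 were higher and 1 lower, beside 4.8% and 1.05%. These counts do not exceed the background. Slc16a10 was lower in both genotypes, by 1.17 in size in wild type (1.04 ± 0.0784 against 3.61 ± 0.262 FPKM). There Gss, which makes glutathione, was the other gene called and was lower. The CD28-/- comparison also called Gatsl3 (1.09) and the synthetase gene Vars (0.75) as higher.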

How the data were processed

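Total RNA of sorted T cells was sequenced as single reads of 50 bases, in 18 libraries, per the labels. The authors deposited 1 table per library of FPKM by gene symbol, made with Trimmomatic 1, TopHat2 2.0.11 and Cufflinks on GRCm38 per the submitters' processing notes. The FPKM unit was inferred from the tool and the values, and the annotation and the strandedness of counting are not given in the sources used here. Groups came from the titles.

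A linear model with a mean for each group was fitted to log2(FPKM + 1) of all 18 libraries by limma 3.58.1 (R 4.3.3), with a trend of variance on level (12 residual degrees of freedom). Genes at 1 FPKM or more in at least 3 libraries were tested, two-sided, with Benjamini-Hochberg adjustment over 12265 genes. The code was tested on simulated data. The members, lists and alternatives were chosen with earlier results of these data known. The text names members called in any comparison, the 12 of highest mean, a few set carriers, and the 3 members nearest each side of the filter.

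Replicate numbers were taken to pair libraries where deviations from the group means of equally numbered libraries correlated above 0.1 for all 3 numbers, which held in 6 of 9 comparisons. It did not hold for loss of CD28 in either Treg subset or for wild type Nrp1-negative Treg against Tconv. In that last comparison the correlations were 0.508, 0.0291 and 0.438. For CD28-/- Nrp1+ Treg against Tconv, where the rule held, they were 0.182, 0.103 and 0.127. The labels give only the numbers, so the pairing is an inference. Alternatives were a pseudocount of 0.1, no filter, quantile normalization, a replicate block, and libraries left out.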

Additional observations from a re-analysis of the deposited data

How the results depend on the processing

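The number of members called was recomputed under each alternative, and most calls at the margin concern 1 to 3 genes. For loss of CD28 in Nrp1+ Treg (1 call, Slc7a10) it was 0 with a pseudocount of 0.1, 0 with no filter on low values (difference -1.20, adjusted p = 0.0569), 0 without CD28-/- Tconv replicate 3 and CD28-/- Nrp1+ Treg replicate 3, and 2 without the 3 outlying libraries. It ranged from 0 to 1 when single libraries were left out. In Nrp1-negative Treg it was 0 with no filter (Slc7a10 adjusted p = 0.0503) and 0 to 1 with single libraries left out. For the wild type Treg subsets it was 2 with no filter, which adds Slc6a8, and 1 to 2 with single libraries left out. In CD28-/- cells it was 3 after quantile normalization and 2 without the 3 outlying libraries. For Nrp1+ Treg against Tconv the 3 calls became 5 with no filter, 6 after quantile normalization and 5 without the 3 libraries in wild type, and 6 and 6 under the last 2 in CD28-/- cells. For wild type Nrp1-negative Treg against Tconv the 1 call became 2 after quantile normalization, 3 without the 3 libraries and 1 to 2 with single libraries left out. In CD28-/- cells the 2 calls became 4 after quantile normalization. In the wild type Nrp1+ Treg and Tconv comparison Slc43a1 lost its call with a pseudocount of 0.1 (adjusted p = 0.0795), and in CD28-/- cells with no filter (adjusted p = 0.0866). The causes were not tested. Quantile normalization moved the median of all genes by more than 0.1 in 6 of the 9 comparisons of 2 groups.

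With the replicate block the count was 2 in both comparisons of the Treg subsets, where the numbers were taken to pair the libraries and Slc36a4 is added. It was also 2 for wild type Nrp1-negative Treg against Tconv, where the numbers were not taken to pair the libraries and Slc7a1 is added. For Nrp1+ Treg against Tconv the block added Slc36a4 in both genotypes, and no other call changed. No called difference reversed its direction under any alternative run. Without read counts the depth cannot be given, and members near or under 1 FPKM are limited most by it.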

Other observations

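The chromosomal neighbours of the transporter genes that differed were also read. Within 250 kb of Slc7a10 lie 9 protein-coding genes, of which 7 are listed and 4 were tested. Of these 4, Cebpa, a myeloid transcription factor 64457 bases away, fell with loss of CD28 in the same comparisons as Slc7a10. Its libraries stood at 5.94, 4.85 and 7.08 FPKM in wild type and 1.49, 0.984 and 1.13 FPKM in CD28-/- Nrp1+ Treg. In Nrp1-negative Treg they stood at 1.32, 1.88 and 1.02 against 0.0370, 0.173 and 0.294 FPKM. By limma the differences were -1.65 (adjusted p = 0.00118) and -1.03 (adjusted p = 0.0497), the second at the edge of the threshold. Of all tested genes 0.204% were called in each of these comparisons. Cebpa also fell in Tconv, from 3.36, 1.57 and 1.65 to 0.173, 0.0680 and 0.255 FPKM, where Slc7a10 was near 0 in both genotypes. That difference was -1.41 by limma (adjusted p = 0.00131), where 0.791% of all tested genes were called. Pepd, Cebpg and Gpatch1, the other 3 tested neighbours, were not called in any of the 3 CD28 comparisons.

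Near Slc43a1 and Slc43a3 on chromosome 2, Ube2l6, which encodes a conjugating enzyme for the ubiquitin-like protein ISG15, was also higher in Nrp1+ Treg than in Tconv. It stood at 21.9, 24.3 and 24.7 FPKM against 5.68, 10.7 and 10.4 FPKM in wild type, without overlap. Of the 9 tested neighbours of Slc43a1 within 250 kb, 2 were called higher in Nrp1+ Treg than in Tconv in each genotype, where 8.33% (wild type) and 9.63% (CD28-/-) of all tested genes were. They were Ube2l6 and Slc43a3, itself a transporter described above, so that 1 neighbour outside the transporter families was called. These neighbours were looked at after the values of the transporter genes were known.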
